A study of Mus musculus with 24 samples.

Results

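The effect of losing PPARα was compared between the liver and the heart of the same 24 female mice. The differences came from 12 of the 24 arrays of the study, 6 of liver and 6 of heart. Each tissue had 3 wild-type (WT) and 3 knockout (KO) pools. For every gene the mean of WT pools 7 to 9 was taken from the mean of KO pools 10 to 12 within a tissue, and the heart difference was then taken from the liver difference. A positive tissue-by-genotype value thus means that KO was higher relative to WT in liver than in heart, and a negative value the reverse. Genes whose WT or KO mean lay above the array median in both tissues (2.45 in liver, 3.03 in heart) were kept apart from those near background in a tissue, which left 10696 of the 18193 genes measured.

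All animals were SV129 mice, wild-type or lacking PPARα, approximately 10 to 12 weeks old, and were killed at zeitgeber time 14, early in the dark phase. The female groups held 12 WT and 12 KO animals. The 12 males of each genotype (WT pools 1 to 3, KO pools 4 to 6) were used as a second set. Their arrays also entered the fits that estimated the spread behind the female p-values. Each array measured RNA that corresponds to 4 pooled animals, and how the null allele was made was not given in the sources used here. No agent is named in the labels. Values are log2 intensities of Affymetrix arrays, ± is the SD over 3 pools unless SE is stated, and p-values measure only the spread between pools. An intensity depends on the probes, and the arrays of each tissue appeared to be normalized apart, so levels were not compared between genes or between tissues.

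PPARα is a nuclear receptor for fatty acids and related lipids that pairs with the retinoid X receptor and binds direct repeats of AGGTCA with a single base between them. In liver it is known for raising the genes of fatty acid uptake, activation, ω-hydroxylation, peroxisomal and mitochondrial β-oxidation and ketone body synthesis during fasting. In heart, which burns fatty acids as its main fuel, it drives transport and mitochondrial oxidation genes alongside the related receptors PPARδ and PPARγ.

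Ppara itself, on chromosome 15, fell in both tissues. Its liver levels were 8.69, 8.24 and 8.48 in WT pools 7, 8 and 9 and 7.39, 7.28 and 7.60 in KO pools 10, 11 and 12. Its heart levels were 7.06, 7.27 and 6.94 in WT and 5.74, 5.28 and 5.66 in KO. No KO pool overlapped a WT pool, yet the transcript stayed detectable, and where its probes lie with respect to the deletion is not stated in those sources. Tissue markers matched the labels: the median of 13 hepatocyte markers was 12.35 to 12.55 in livers and 2.97 to 3.44 in hearts, and that of 12 cardiomyocyte markers 12.69 to 12.77 in hearts and 2.34 to 2.63 in livers. In heart KO pool 10, however, the Y-linked Eif2s3y reached 3.34 against at most 2.50 in the other female hearts, and the liver transcripts Alb, Apoa2 and Fga reached 7.94, 4.84 and 3.25 against at most 3.40, 3.68 and 2.54. In the second set, Xist reached 6.62 in male KO heart pool 4, while the remaining hearts of males stayed at 3.12 or below. Liver KO pool 12 lay farther from its sister pools than any other liver pool, with an SD of the difference over genes of 0.329 against 0.198 to 0.275. The 3' minus 5' difference of the Actb control probe sets was 1.11 to 1.47 in WT and 1.35 to 1.66 in KO livers. In hearts it was 0.45 to 0.63 in WT and 0.45 to 0.52 in KO. For Gapdh it was 0.45 to 0.57 and 0.29 to 0.72 in livers, and 0.13 to 0.19 and 0.08 to 0.12 in hearts. The part of RNA quality in the KO effects was not tested. In these bulk samples, fewer cells of a type and less RNA per cell cannot be told apart.

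The KO effect differed between liver and heart for 127 of the 18193 genes tested (0.698%) at an adjusted p under 0.05 in limma, 68 with a positive (0.374%) and 59 with a negative value (0.324%). Of these, 92 were above the array median in both tissues, which is 0.86% of that group, 24 were near background in heart and 11 near background in liver. Without heart KO pool 10 the test called 110 genes, and without liver KO pool 12 it called 172. Among the 92 genes, 25 rose in KO liver and did not pass in heart, 22 fell in liver and did not pass in heart, 20 fell in heart and did not pass in liver, 5 rose in heart and did not pass in liver, and 7 fell in both tissues by different amounts. The remaining 13 passed only as a difference between tissues. Genes that moved in opposite directions and passed in both tissues numbered 0 in limma, and the tissue difference of all 92 ran from -3.12 to 2.53. The threshold for being kept was low, and 63 of the 5029 genes with a level at least 1 log2 unit above the median in both tissues (1.25%) were called. Of the 92, 7 were kept through only the WT or only the KO mean in a tissue, and 85 had both means above the median in both tissues.

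**Figure D1:**
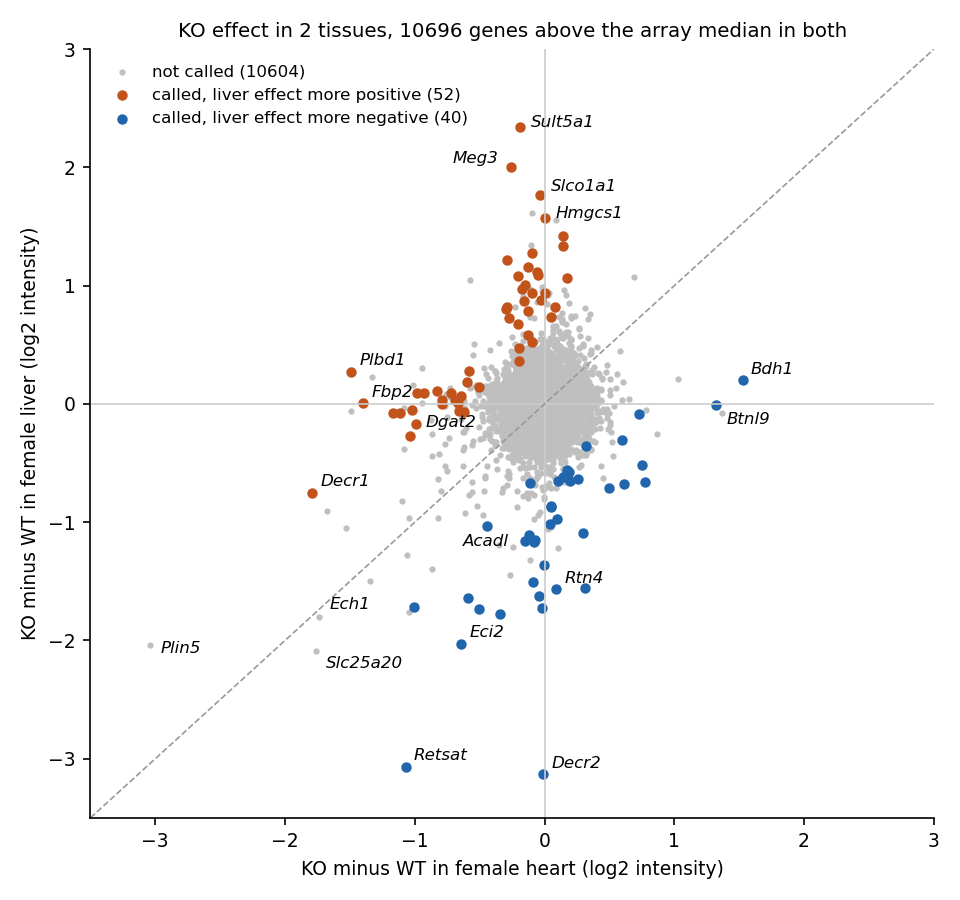
KO minus WT in female heart (x axis, log2) against KO minus WT in female liver (y axis, log2) for the 10696 genes above the array median in both tissues, each difference from 3 pools per genotype. Coloured points are the 92 genes called for tissue by genotype; most lie near an axis, and Decr1, Retsat, Eci2 and Eci1 fell in both tissues.

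A shared set of genes, many of them of fatty acid oxidation, fell in KO animals in both tissues. In liver 148 genes passed (0.813% of genes; 66 higher, 0.363%, and 82 lower, 0.451%) and in heart 97 (0.533%; 22 higher, 0.121%, and 75 lower, 0.412%), and 26 genes passed in both, all of them lower (0.143%). These 26 were 31.7% of the genes lower in liver and 34.7% of those lower in heart. Ppara, the gene knocked out, is among them (-1.05 in liver and -1.53 in heart), as are genes outside fatty acid oxidation such as Gna12. The tissue-by-genotype test called 7 of the 26. For the other 19, Ppara included, the difference ran from -0.72 to 1.00. The 95% interval lay within 1 log2 unit of 0 for 17 of these 19 and within 0.5 for 9. A p that missed the threshold does not show that these genes fell equally in the 2 tissues.

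The carnitine shuttle, which carries long-chain fatty acids into mitochondria, was part of this set. Slc25a20, the carnitine-acylcarnitine carrier of the inner membrane, was at 8.96, 9.18 and 8.87 in WT livers and 7.10, 6.92 and 6.72 in KO livers. Its heart levels were 8.79, 8.84 and 8.55 in WT and 6.98, 6.79 and 7.12 in KO. Every KO pool lay below every WT pool in both tissues, an arrangement that 5.21% of genes showed in liver and 6.58% in heart (10.4% and 12.1% when KO pools on either side of the WT pools are counted). The carrier fell 4.25-fold in liver and 3.39-fold in heart, and the difference between these effects was -0.33 ± 0.15 (SE; 95% interval -0.64 to -0.01, limma adjusted p = 0.644). This difference was -0.56 and passed with the mean of probe sets (adjusted p = 0.0132), and was 0.12 with renewed quantile normalization (adjusted p = 0.944). Cpt2, which turns acylcarnitines back into acyl-CoA inside the matrix, was at 8.63, 8.81 and 8.48 in WT and 7.11, 7.26 and 7.05 in KO livers, and at 9.52, 9.48 and 9.45 in WT and 8.17, 8.17 and 8.07 in KO hearts. It fell 2.83-fold and 2.54-fold, and its interval for the tissue difference ran from -0.46 to 0.16 (limma adjusted p = 0.936). Over all alternatives run, the log2 value of Cpt2 lay between -1.58 and -1.01 in liver. In heart it lay between -1.37 and -0.80, the latter with the mean of its probe sets, and the tissue difference lay between -0.23 and 0.07. Slc22a5, the plasma membrane carnitine transporter, fell by 1.76 in liver and by 1.04 in heart on the log2 scale, with a tissue difference of -0.72 (interval -1.23 to -0.20, limma adjusted p = 0.338). Of the 9 measured genes of the carnitine list, 3 fell in liver and 4 in heart (over all genes 0.451% and 0.412%). Aldh9a1, an aldehyde dehydrogenase of carnitine synthesis, was the member that passed in heart alone and in the tissue test.

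Enzymes of the β-oxidation spiral followed the same course. Ech1, a dienoyl-CoA isomerase of mitochondria and peroxisomes, was at 8.69, 9.04 and 8.60 in WT and 6.96, 7.04 and 6.92 in KO livers, and at 11.46, 11.50 and 11.27 in WT and 9.62, 9.72 and 9.69 in KO hearts. The pools of the genotypes were far apart in both tissues. It fell 3.49-fold in liver and 3.33-fold in heart, with a tissue difference of -0.07 (interval -0.35 to 0.22, limma adjusted p = 0.984). Acadvl, the dehydrogenase for very long chains, was at 9.35, 9.44 and 9.46 in WT and 8.14, 8.15 and 8.13 in KO livers, and at 10.49, 10.64 and 10.46 in WT and 9.41, 9.51 and 9.49 in KO hearts. It fell 2.43-fold and 2.08-fold, with a tissue difference of -0.22 (interval -0.44 to 0.00, limma adjusted p = 0.686). Acads, the dehydrogenase for short chains, fell by 0.74 in liver and by 0.80 in heart, and Acaa2, the mitochondrial thiolase, by 0.43 and by 0.81 on the log2 scale. The call for Acaa2 in liver was lost without WT pool 8, WT pool 9 or KO pool 11, with adjusted p up to 0.157, the highest over all alternatives run (upper values for other genes are given in the same way).

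Hadha and Hadhb, the α and β subunits of the mitochondrial trifunctional protein, which carries out the last 3 steps of the spiral on long chains, fell modestly in both tissues. Hadha was at 8.56, 8.64 and 8.53 in WT and 8.06, 8.0 and 7.97 in KO livers, and at 10.84, 10.91 and 10.85 in WT and 10.05, 10.10 and 10.19 in KO hearts. Hadhb was at 9.29, 9.40 and 9.36 in WT and 8.58, 8.62 and 8.56 in KO livers, and at 11.93, 11.95 and 11.97 in WT and 11.35, 11.36 and 11.41 in KO hearts. All 4 comparisons were free of overlap, with falls of 0.57 and 0.77 in liver and of 0.75 and 0.58 in heart on the log2 scale. Averaged over its probe sets, Hadhb fell by 0.38 in liver (adjusted p = 0.02). In heart the value of Hadhb lay between -0.60 and -0.42 over all alternatives run and passed in each (adjusted p up to 0.0463). The intervals of their tissue differences ran from -0.02 to 0.39 and from -0.39 to 0.02. The genes lie head to head on chromosome 5 (RefSeq, GRCm38.p6), with starts 273 bases apart, so the bases before Hadhb are also those before Hadha. They are shown as an example of a promoter whose genes fell in both tissues, on the Hadhb strand.
Hadhb, chr5:30155003-30155252, plus strand: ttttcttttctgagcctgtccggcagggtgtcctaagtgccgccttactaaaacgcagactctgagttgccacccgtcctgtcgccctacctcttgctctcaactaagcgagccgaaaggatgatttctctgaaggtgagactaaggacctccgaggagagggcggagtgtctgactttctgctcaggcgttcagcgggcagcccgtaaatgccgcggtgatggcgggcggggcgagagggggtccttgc

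No match to the direct repeat (AGGTCA, any base, AGGTCA; either strand, up to 2 mismatches) was found in this stretch. Over the 300 bases around the start (250 before, 50 after) such a match occurred in 4.4% of the 27025 genes with a RefSeq promoter entry and in 3.97% of the 14452 genes measured here. It occurred in 1 of the 22 genes lower in both tissues that have an entry, Slc25a20, where the match, in capitals, lay just after the start. A match of letters is a description and not a bound site, and its absence says only that these letters are not in this window.
Slc25a20, chr9:108662136-108662160, plus strand: gaatgtAGGTGAAAGGTCGgcggag

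Plin5, a coat protein of lipid droplets in oxidative tissues, fell most in heart. It was at 6.78, 6.86 and 5.63 in WT and 4.93, 4.81 and 3.42 in KO livers, and at 7.53, 7.45 and 7.33 in WT and 4.51, 4.44 and 4.24 in KO hearts. The liver pools were widely spread and the heart pools tight. The tissue difference was 1.00 ± 0.39 (SE; interval 0.19 to 1.82, limma adjusted p = 0.476), and the call in liver was lost without WT pool 7 or WT pool 8 (adjusted p up to 0.279). Without liver KO pool 12 the tissue difference was 1.49 and passed (adjusted p = 0.00709), as it did with array weights (1.34) and renewed quantile normalization (1.59), and without liver WT pool 9 it was 0.61 (adjusted p = 0.808). Ephx2, an epoxide hydrolase of lipid mediators, fell by 0.82 in liver and by 1.10 in heart, and Dhrs4, a carbonyl reductase of peroxisomes, by 0.97 and by 1.05. Gna12, a G protein α subunit, fell by 1.40 and by 0.87, and averaged over its probe sets by 0.68 and by 0.53.

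**Figure D2:**
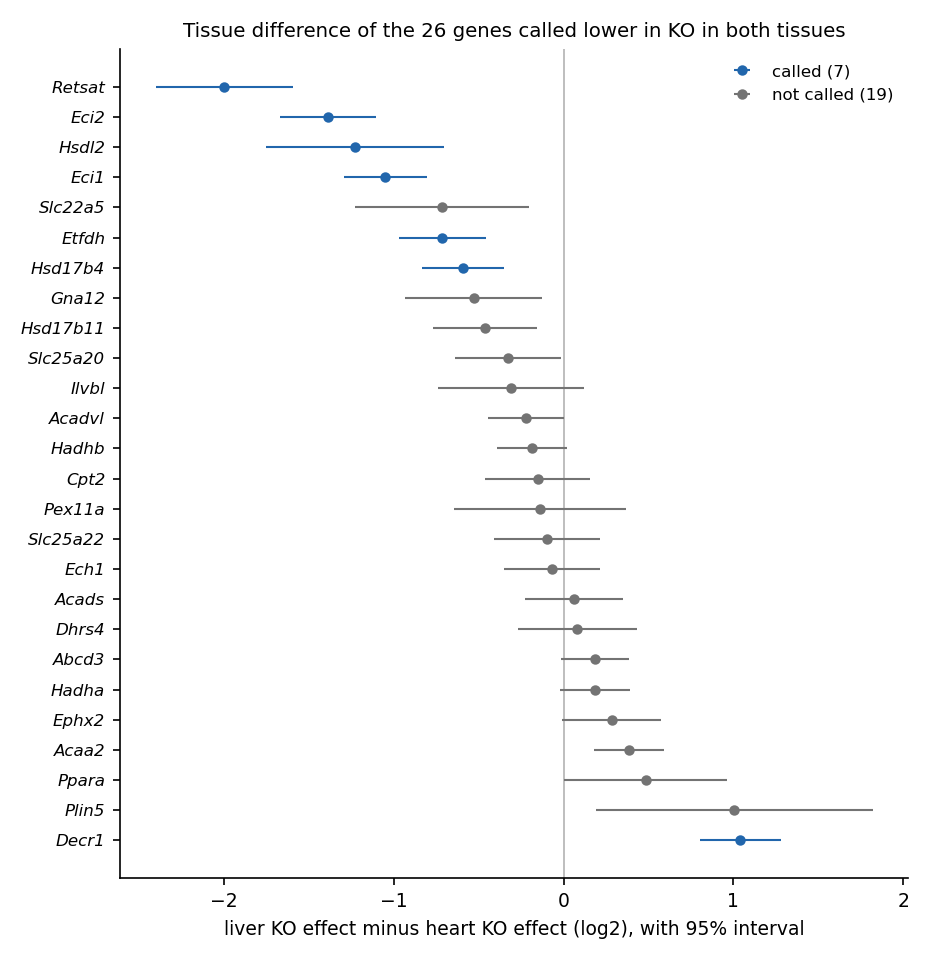
Liver effect minus heart effect (x axis, log2) with its 95% interval for the 26 genes called lower in KO in both female tissues, ordered by value, with genes called for tissue by genotype in colour. For 19 genes the tissues did not differ past the threshold, while Retsat, Eci2, Hsdl2, Eci1, Etfdh and Hsd17b4 fell further in liver and Decr1 further in heart.

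Of the 7 genes that fell in both tissues by different amounts, 6 fell further in liver. Retsat, a reductase that saturates all-trans-retinol, was at 9.45, 9.74 and 9.16 in WT and 6.39, 6.35 and 6.42 in KO livers, and at 6.99, 7.18 and 6.92 in WT and 6.0, 5.87 and 6.01 in KO hearts. It fell 8.38-fold in liver and 2.10-fold in heart, a difference of -2.0 ± 0.20 (SE; limma adjusted p = 1.28e-06). Eci2, an enoyl-CoA isomerase of peroxisomes and mitochondria, was at 8.75, 8.73 and 8.57 in WT and 6.77, 6.82 and 6.37 in KO livers, and at 8.54, 8.58 and 8.40 in WT and 7.87, 7.91 and 7.82 in KO hearts. Its 4.07-fold fall in liver and 1.56-fold fall in heart differed by 1.38 on the log2 scale (limma adjusted p = 1.28e-06). Eci1, the mitochondrial isomerase for unsaturated chains, fell 3.11-fold in liver and 1.50-fold in heart (limma adjusted p = 9e-06). Etfdh, which passes electrons from acyl-CoA dehydrogenases to ubiquinone, fell 3.29-fold and 2.01-fold (limma adjusted p = 0.00269). Averaged over its probe sets, the difference for Etfdh was -0.34 and did not pass (adjusted p = 0.173), with falls of 0.87 in liver and 0.53 in heart. Hsdl2, a peroxisomal dehydrogenase-like protein, and Hsd17b4, the peroxisomal multifunctional enzyme, fell further in liver by 1.23 and by 0.59 (limma adjusted p = 0.0157 and 0.0101). The tissue call for Hsdl2 was lost without liver WT pool 8, heart WT pool 7 or heart KO pool 12. It was also lost in the 12 female arrays alone and with renewed quantile normalization (adjusted p up to 0.195 over all alternatives). The liver call for Hsdl2 was lost with only the 6 arrays compared (adjusted p = 0.0803). The calls in heart alone were lost without WT pool 8, KO pool 10 or KO pool 11 for both, without WT pool 9 for Hsdl2 and without WT pool 7 or KO pool 12 for Hsd17b4 (adjusted p up to 0.242 for Hsdl2 and 0.299 for Hsd17b4). The tissue call for Hsd17b4 was lost in the 12 female arrays alone (adjusted p = 0.0791) and with renewed quantile normalization (adjusted p = 0.0544).

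The dienoyl-CoA reductases, which remove double bonds from unsaturated fatty acids, parted by tissue and by organelle. Decr1, the mitochondrial enzyme, was at 8.47, 8.68 and 8.57 in WT and 7.81, 7.81 and 7.85 in KO livers, and at 9.26, 9.43 and 9.28 in WT and 7.52, 7.46 and 7.62 in KO hearts. It fell 1.68-fold in liver and 3.46-fold in heart, which made it the only gene of the 26 whose fall in heart was called as the larger (difference 1.04 ± 0.12 SE, limma adjusted p = 7.87e-06). Decr2, the peroxisomal enzyme, was at 7.90, 7.80 and 7.77 in WT and 5.21, 5.21 and 3.67 in KO livers, and at 3.49, 3.23 and 3.40 in WT and 3.34, 3.43 and 3.32 in KO hearts. It fell 8.74-fold in liver, with KO pool 12 far below its sisters, while the heart pools overlapped near the array median. The difference of -3.12 ± 0.37 (SE; limma adjusted p = 1.8e-05) was the most negative among the 92 genes, and a fall in heart from so low a level could hardly be measured.

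Acadl, the dehydrogenase for long chains, fell in liver alone. It was at 8.99, 9.01 and 8.89 in WT and 7.87, 7.78 and 7.74 in KO livers, and at 11.21, 11.32 and 11.42 in WT and 11.24, 11.20 and 11.26 in KO hearts. The liver pools were separate and the heart pools overlapped at a high level. The 2.24-fold fall in liver differed from the heart value of -0.08 by 1.08 on the log2 scale (95% interval of the difference -1.32 to -0.84, limma adjusted p = 4.38e-06). Averaged over the probe sets of Acadl, the liver value was -0.63 and the tissue difference -0.56 (adjusted p = 0.00231). Of the 20 genes of the mitochondrial β-oxidation list, 13 fell in liver and 10 in heart (over all genes 0.451% and 0.412%), with none higher in either. Their median difference was -0.55 in liver and -0.41 in heart, against a median of -0.0015 and -0.0053 over all genes. For 5 the tissues differed, with Acadl, Eci1, Eci2 and Etfdh further down in liver and Decr1 in heart. Etfb and Acat1, an electron transfer subunit and a thiolase of ketone metabolism, passed in liver alone at -0.75 and -0.54, but their tissue differences of -0.42 and -0.35 did not pass. The call for Acat1 was lost without WT pool 8 or 9 or KO pool 10 or 11 (adjusted p up to 0.361). The medium-chain dehydrogenase gene Acadm passed in heart alone at -0.47 with a tissue difference of 0.18 that did not pass, and was lost without WT pool 8 or 9 or KO pool 10 or 11 (adjusted p up to 0.0822).

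Other genes above the median in both tissues fell in liver and did not pass in heart. Rtn4, which shapes the tubules of the endoplasmic reticulum, was at 8.07, 8.06 and 8.07 in WT and 6.68, 6.45 and 6.38 in KO livers, and at 7.87, 7.77 and 8.03 in WT and 8.02, 7.88 and 8.02 in KO hearts. The liver pools stood apart while the heart pools overlapped, and the difference was -1.65 ± 0.23 (SE; limma adjusted p = 0.000227). Tmed5, a cargo receptor between the endoplasmic reticulum and the Golgi, fell 3.42-fold in liver, and Casp8, a protease of cell death receptors, 2.13-fold. With the mean of probe sets the tissue differences were smaller and passed, at -0.80 for Rtn4 and -0.65 for Tmed5. Cyp26a1, which breaks down retinoic acid, fell 3.30-fold from 5.07 ± 0.41 to 3.35 ± 0.25 in liver and was at 3.24 ± 0.31 and 3.22 ± 0.08 in WT and KO hearts. Fitm2, a protein of lipid droplet formation, fell by 1.16 in liver and was -0.15 in heart (limma adjusted p of the difference 0.0121, and 0.0784 in the 12 female arrays alone). The fatty acid translocase gene Cd36 fell 2.85-fold in liver, a call lost without WT pools 8 or 9 or KO pools 10 or 11 (adjusted p up to 0.157). Its tissue difference of -1.42 (limma adjusted p = 0.0223) was past the threshold under 13 of 23 alternatives, and was lost without any of liver WT pool 8, liver KO pool 10, heart WT pools 7 and 8 or heart KO pools 11 and 12 (adjusted p up to 0.166).

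Among genes near background in heart, liver falls reached their largest sizes, and here the heart could show little change. Cyp4a14, a fatty acid ω-hydroxylase, was at 8.90, 9.40 and 7.85 in WT and 3.34, 2.90 and 2.39 in KO livers and between 2.33 and 2.46 in all hearts. It fell 57.4-fold, with no overlap of the genotypes, and the tissue difference was -5.82 ± 0.60 (SE; limma adjusted p = 2.45e-06). Vnn1, a pantetheinase of the cell surface, was at 6.88, 7.28 and 7.17 in WT and 2.35, 2.42 and 2.26 in KO livers and between 2.47 and 2.58 in hearts. Its KO livers lay below the array median, so the 27.3-fold fall is limited by background. Adtrp, a hydrolase of fatty acid esters of hydroxy fatty acids, fell 4.93-fold, Acaa1b, a peroxisomal thiolase, 3.14-fold, and Rad51b, a DNA recombination gene, 5.32-fold. The tissue difference of Rad51b was -2.51, and -1.20 with the mean of its probe sets (adjusted p = 1.25e-05). Of the 10 measured genes of the ω-hydroxylation list, 4 fell in liver and 1 rose, and none passed in heart. In the tissue test 3 of them passed, all further down in liver. Over all genes 0.451% fell and 0.363% rose in liver, and 0.324% passed with a negative value in the tissue test.

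**Figure D3:**
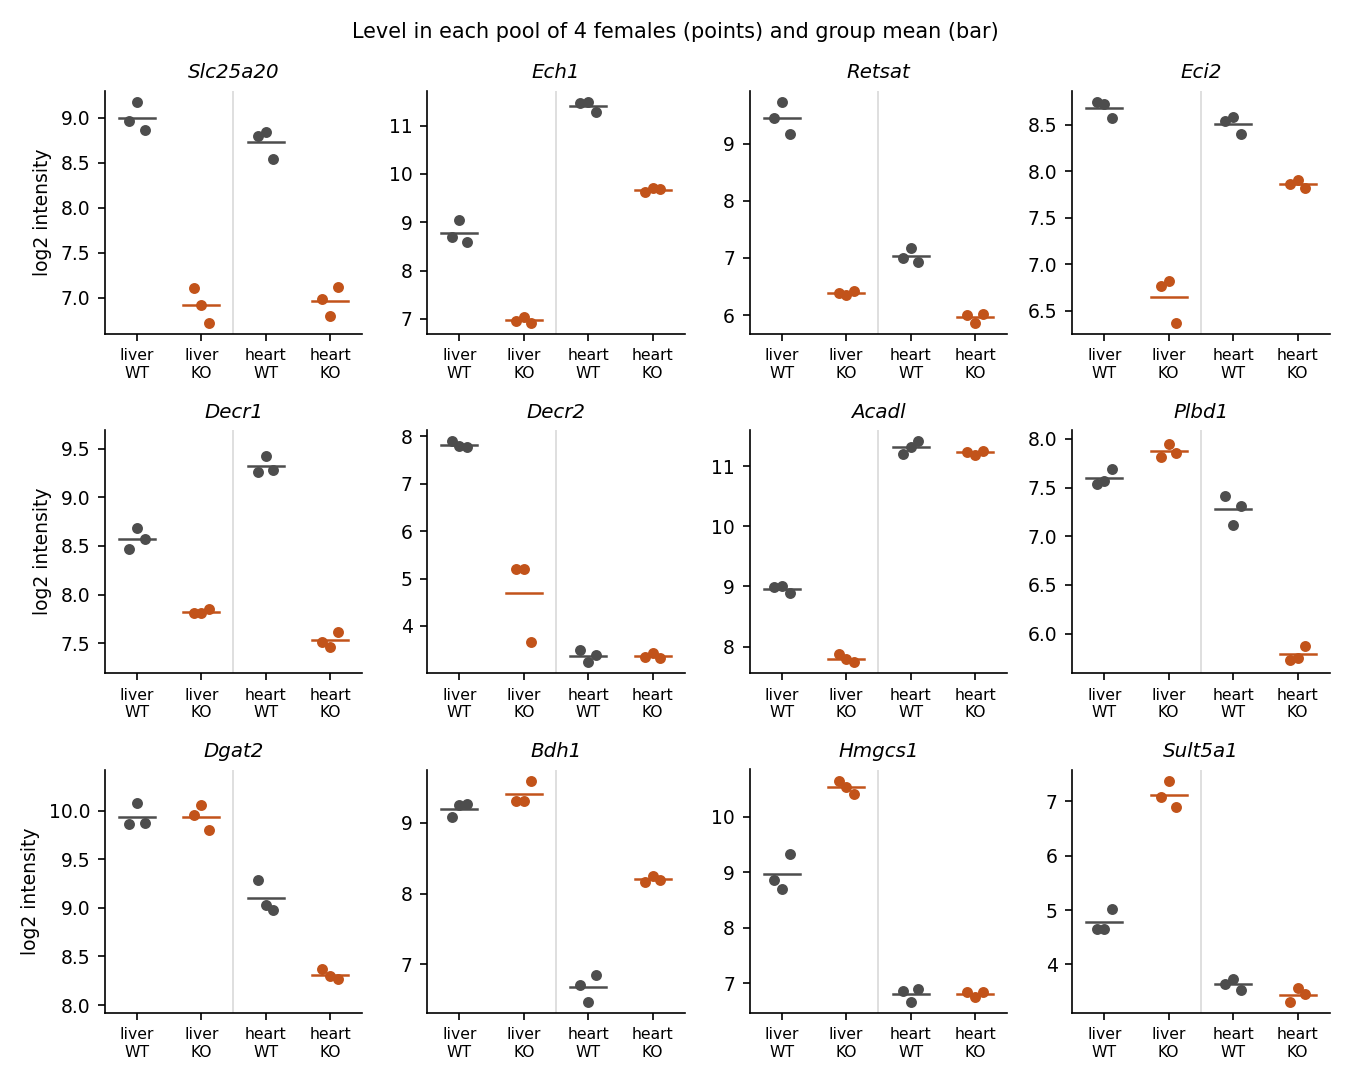
Log2 intensity (y axis) of single pools of female liver and heart, WT pools 7 to 9 and KO pools 10 to 12, for 12 genes, with a line at each group mean and each gene on its own axis. Slc25a20 fell in both tissues, Decr1 further in heart, Acadl in liver alone, Plbd1 in heart alone, Bdh1 rose in heart and Hmgcs1 in liver.

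Another set of genes fell in heart and did not pass in liver, and Plbd1 led it. Some of these genes had livers close to the array median of 2.45, where a fall could hardly be measured. Apbb1 was at 2.50 in WT and 2.42 in KO livers, Hspb6 at 2.57 and 2.63 and Igfbp6 at 2.57 and 2.58. Plbd1, a phospholipase B-like lysosomal protein, was at 7.41, 7.12 and 7.31 in WT and 5.73, 5.75 and 5.87 in KO hearts, and at 7.54, 7.57 and 7.69 in WT and 7.81, 7.95 and 7.86 in KO livers. It fell 2.82-fold in heart with no overlap, whereas the KO livers all lay slightly above the WT livers without passing. The tissue difference was 1.77 ± 0.15 (SE; 95% interval 1.46 to 2.07, limma adjusted p = 9.78e-08). Fbp2, the muscle fructose bisphosphatase, was at 5.05, 4.55 and 5.02 in WT and 3.49, 3.46 and 3.47 in KO hearts, and between 2.67 and 3.08 in livers. It fell 2.64-fold in heart and the liver pools overlapped at a low level, where a fall could hardly be measured. Fah, the last enzyme of tyrosine breakdown, fell 1.97-fold in heart, from 5.26 ± 0.19 to 4.28 ± 0.15, while the liver stayed between 10.57 and 10.69. Tesc, a calcium-binding regulator of a sodium-proton exchanger, fell 2.25-fold in heart, from 8.59 ± 0.17 to 7.42 ± 0.04, on a probe set that may bind related transcripts. Its livers were at 2.60 ± 0.06 in WT and 2.52 ± 0.03 in KO, close to the array median of 2.45, where a fall could hardly be measured. Coq3, a methyltransferase of ubiquinone synthesis, fell 1.99-fold in heart (tissue difference 0.83, limma adjusted p = 0.0104), a call that the pool number as a block or the 12 female arrays alone removed.

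Gpam, Dgat2 and Agpat2, genes of triglyceride synthesis, fell in heart and did not pass in liver. Gpam, which adds the first acyl chain to glycerol phosphate, was at 8.63, 8.56 and 8.70 in WT and 7.52, 7.66 and 7.94 in KO hearts, and at 8.20, 8.27 and 8.44 in WT and 8.57, 8.54 and 8.09 in KO livers. It fell 1.90-fold in heart, and the tissue difference of 1.02 ± 0.19 (SE; limma adjusted p = 0.00497) did not pass with the mean of its probe sets (adjusted p = 0.137). Dgat2, which adds the last acyl chain, was at 9.29, 9.03 and 8.98 in WT and 8.37, 8.29 and 8.26 in KO hearts, and at 9.86, 10.08 and 9.87 in WT and 9.95, 10.05 and 9.80 in KO livers. It fell 1.73-fold in heart with separate pools, the liver pools overlapped, and the tissue difference of 0.79 ± 0.15 (SE; limma adjusted p = 0.00497) passed under all 23 alternatives. Agpat2, the enzyme of the step between, fell from 7.16 ± 0.22 to 6.37 ± 0.32 in heart. Its tissue difference of 0.82 was lost without liver KO pool 11, heart WT pools 7 or 9 or heart KO pool 11, with the pool number as a fixed block (adjusted p = 0.088) and in the 12 female arrays alone (adjusted p = 0.182). Its call in heart was lost without WT pools 7 or 9 or KO pools 11 or 12 (adjusted p up to 0.0901). The lipase gene Pnpla2 passed in heart at -0.42, with a tissue difference of 0.13 that did not pass, and its call was lost without any 1 of the 6 heart pools (adjusted p up to 0.207). Of the 15 genes in the list of triglyceride lipases and synthesis, 4 fell in heart, none passed in liver and 3 passed in the tissue test. The heart difference was positive for 5 of the 15 and negative for 10, with a median of -0.15. Over all genes 0.412% fell in heart and 0.698% passed in the tissue test. The median tissue difference of the list was 0.14 against 0.00 over all genes.

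Markers of fat and atrial tissue were also measured in the heart groups. Of 7 adipocyte markers measured, 6 had a negative heart difference, as had 9454 of all 18193 genes. Adipoq, the adipocyte hormone, was at 7.63, 7.31 and 7.99 in WT and 7.0, 4.55 and 6.85 in KO hearts, which did not pass (-1.52, limma adjusted p = 0.676). Fabp4, a fatty acid binding protein of fat and endothelium, was higher by 0.48 and passed, a call lost without WT pool 7 or 8 or any KO pool (adjusted p up to 0.273), and the median marker level was 4.49 to 4.71 in WT and 4.49 to 4.60 in KO hearts. Of 6 atrial markers none had a positive heart difference, against 8739 of all 18193 genes. The median level of these markers was 10.22 to 10.34 in WT and 9.53 to 9.93 in KO hearts. Sln and Myl7 fell by 0.71 and 0.65. The calls for both were lost without WT pool 7, KO pool 11 or KO pool 12, and for Sln also without WT pool 8 (adjusted p up to 0.125 for Sln and 0.0889 for Myl7). The part of fat or atrial tissue in the heart results was not tested.

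Cat and Aldh9a1 fell in heart and did not pass in liver, and the window of each start held a match to the motif of PPARα with 2 mismatches. Cat, the peroxisomal catalase, was at 8.46, 8.61 and 8.84 in WT and 8.05, 7.81 and 7.98 in KO hearts and between 10.79 and 10.96 in livers (tissue difference 0.72, limma adjusted p = 0.00520). Aldh9a1 was at 6.56, 6.40 and 6.42 in WT and 5.37, 5.29 and 5.62 in KO hearts, and at 9.42 ± 0.18 and 9.15 ± 0.07 in WT and KO livers (tissue difference 0.76, limma adjusted p = 0.00457). In both genes the heart pools were separate and 1.61-fold and 2.05-fold lower. Neither tissue difference passed in the 12 female arrays alone (adjusted p = 0.0633 for Cat and 0.0608 for Aldh9a1), and that of Cat did not pass averaged over its probe sets (adjusted p = 0.0618). The windows with the match in capitals are shown beside that of Cd36, which passed in liver and not in heart.
Cat, chr2:103485324-103485373, minus strand: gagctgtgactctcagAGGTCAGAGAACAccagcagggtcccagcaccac
Aldh9a1, chr1:167349831-167349880, plus strand: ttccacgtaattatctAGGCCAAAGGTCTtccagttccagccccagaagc
Cd36, chr5:17835927-17835976, minus strand: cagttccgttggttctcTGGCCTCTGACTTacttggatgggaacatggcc

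Such a match occurred in 4 of the 41 genes lower in heart and not in liver that have a promoter entry (9.76%), in 1 of 45 lower in liver and not in heart (2.22%) and in 4 of 54 higher in liver (7.41%), with 2 mismatches in Cd36 as well. Closer matches lay before Slco1a1 (1 mismatch), which rose in liver, and Igsf23 (0 mismatches), whose tissue difference of 0.86 passed (limma adjusted p = 0.0267) while neither tissue did. These counts are small, and the share over all promoters was 4.4%.

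A few genes rose in heart. Bdh1, the mitochondrial enzyme that interconverts the ketone bodies acetoacetate and β-hydroxybutyrate, was at 6.71, 6.47 and 6.85 in WT and 8.16, 8.25 and 8.19 in KO hearts, and at 9.08, 9.25 and 9.27 in WT and 9.31, 9.31 and 9.60 in KO livers. It rose 2.88-fold in heart, where all KO pools lay above all WT pools, as in 5.57% of genes, and did not pass in liver, and the tissue difference was -1.32 ± 0.24 (SE; 95% interval -1.83 to -0.82, limma adjusted p = 0.00494). Of the 7 measured genes of the ketone body list Bdh1 was the only one that passed in either tissue. Acat1, counted in the β-oxidation list, passed in liver alone. Btnl9, a butyrophilin-like membrane protein, was at 4.82, 5.0 and 4.86 in WT and 5.94, 6.22 and 6.49 in KO hearts and between 2.38 and 2.54 in livers, close to the median, with a 2.50-fold rise in heart. Averaged over probe sets, the tissue differences of Bdh1 and Btnl9 were -0.86 and -0.81 and passed. Gsdme, Ddah1 and Armcx4 were higher in KO hearts by 0.75, 0.60 and 0.73. The calls in heart were lost without KO pool 10 or KO pool 12 and without WT pool 7 for Gsdme and Armcx4, without WT pool 8 for Gsdme and without WT pool 9 for Armcx4 (adjusted p up to 0.156 and 0.158). With the mean of probe sets Gsdme was 0.36 and Ddah1 0.30, and neither passed (adjusted p = 0.12 for Ddah1).

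Of the 19 measured genes of cholesterol synthesis 8 rose in KO livers, against 0.363% of all genes, and none of the 19 passed in hearts. Hmgcs1, which makes HMG-CoA for the pathway, was at 8.87, 8.69 and 9.33 in WT and 10.66, 10.55 and 10.41 in KO livers, and at 6.86, 6.66 and 6.89 in WT and 6.83, 6.74 and 6.84 in KO hearts. All KO livers lay above all WT livers, which 5.18% of genes showed, while the heart pools overlapped. The rise was 2.98-fold in liver, and the tissue difference was 1.57 ± 0.24 (SE; 95% interval 1.08 to 2.06, limma adjusted p = 0.000515). Msmo1, a sterol methyl oxidase, rose 2.52-fold in liver, with a tissue difference of 1.19 (limma adjusted p = 0.00756) that did not pass with the mean of its probe sets (adjusted p = 0.0761). Mvk, mevalonate kinase, was at 4.91, 5.11 and 5.22 in WT and 6.08, 5.93 and 5.87 in KO livers and between 4.41 and 4.64 in hearts, a 1.84-fold rise in liver. Nsdhl, a sterol dehydrogenase, rose 2.13-fold and Fdft1, squalene synthase, 1.92-fold. Their calls in liver alone were lost without WT pool 7 or KO pool 11, and for Fdft1 also without WT pool 8 (adjusted p up to 0.0861 and 0.0803), while their tissue differences passed under every alternative. Idi1, Sqle and Cyp51 rose in liver and were near background in heart, and the liver call for Sqle was lost without WT pool 7 or 8 or KO pool 10 or 11 (adjusted p up to 0.213). Averaged over probe sets, the liver values of Msmo1, Fdft1 and Cyp51 were 0.67, 0.53 and 0.83 and passed.

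The 8 members that rose in liver also passed in the tissue test, where 0.374% of all genes passed with a positive value. All 19 had a positive liver difference against 10 in heart (8990 and 8739 of all 18193 genes). The median of the list was 0.88 in liver, 0.00 in heart and 0.91 for the difference between them. In contrast, none of the 17 fatty acid synthesis genes passed in liver, and 1, the malic enzyme gene Me1, fell in heart by 0.87. Cholesterol genes are known for promoters in which sterol-responsive elements sit beside CCAAT boxes. All 16 list members with a promoter entry held CCAAT on either strand within 250 bases before the start, a group that includes all 6 with an entry among those called. The same letters occurred in 37.5% of all promoters, 48.1% of the genes higher in liver, 31.8% of those lower in both tissues and 63.4% of those lower in heart alone. Since every list member with an entry held them, the letters do not separate called from uncalled members, and a match is not a bound site. The stretches before 4 called members are shown, since this list had the most calls that rose in liver, with CCAAT or its reverse complement ATTGG in capitals.
Hmgcs1, chr13:119690171-119690350, plus strand: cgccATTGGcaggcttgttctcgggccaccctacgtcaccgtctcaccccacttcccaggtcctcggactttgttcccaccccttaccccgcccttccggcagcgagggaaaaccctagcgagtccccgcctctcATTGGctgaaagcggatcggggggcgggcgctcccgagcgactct
Msmo1, chr8:64733579-64733758, minus strand: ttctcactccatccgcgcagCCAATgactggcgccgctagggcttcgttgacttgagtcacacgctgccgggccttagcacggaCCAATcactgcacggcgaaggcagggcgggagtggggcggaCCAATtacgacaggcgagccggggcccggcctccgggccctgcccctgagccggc
Mvk, chr5:114444089-114444268, plus strand: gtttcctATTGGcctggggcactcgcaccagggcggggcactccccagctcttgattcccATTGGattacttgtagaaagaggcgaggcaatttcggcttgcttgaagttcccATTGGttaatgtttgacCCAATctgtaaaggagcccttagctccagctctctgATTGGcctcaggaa
Nsdhl, chrX:72918341-72918520, plus strand: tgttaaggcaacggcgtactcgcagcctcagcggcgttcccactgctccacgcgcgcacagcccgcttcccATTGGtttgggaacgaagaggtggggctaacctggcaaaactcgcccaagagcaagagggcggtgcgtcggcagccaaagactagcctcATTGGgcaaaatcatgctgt

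Other genes above the median in both tissues rose in liver and did not pass in heart. Sult5a1, a sulfotransferase, was at 4.66, 4.66 and 5.02 in WT and 7.08, 7.38 and 6.90 in KO livers, and at 3.64, 3.74 and 3.52 in WT and 3.31, 3.57 and 3.45 in KO hearts. Its 5.08-fold rise in liver, with pools far apart, gave the most positive tissue difference of the 92 genes, 2.53 ± 0.19 (SE; limma adjusted p = 1.34e-08). Meg3, an imprinted noncoding RNA, was at 3.53, 3.98 and 4.25 in WT and 5.97, 6.10 and 5.70 in KO livers, and at 6.84, 6.67 and 6.83 in WT and 6.51, 6.45 and 6.61 in KO hearts. It rose 4.01-fold in liver, the KO hearts lay slightly lower without passing, and its probe set may bind related transcripts. Averaged over the probe sets of Meg3, the liver value was 0.625 and the tissue difference 0.72 against 2.0 and 2.26 here, and both passed. Slco1a1, an organic anion transporter of hepatocytes, rose 3.41-fold, from 5.93 ± 0.50 to 7.70 ± 0.46, and Slc22a7, another one, 2.68-fold. Tmem97, a sterol-linked membrane protein, rose 1.74-fold, Tcea3, an elongation factor, 2.01-fold and Eif4e3, a cap-binding protein, 1.66-fold. Among genes near background in heart, the oxysterol hydroxylase gene Cyp7b1 rose 3.34-fold and the estrogen sulfotransferase gene Sult1e1 4.27-fold. The tissue difference of Cyp7b1 was 1.77, and 1.17 with the mean of its probe sets (adjusted p = 0.000227).

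Pdk4, the kinase that shuts down pyruvate dehydrogenase and is itself known as a PPARα target, rose in liver. It was at 2.40, 2.67 and 2.40 in WT and 3.83, 3.72 and 3.29 in KO livers, and at 9.72, 9.52 and 9.58 in WT and 9.42, 9.62 and 9.61 in KO hearts. The WT livers lay at the array median, the KO livers all above them, and the heart pools overlapped. The rise of 2.17-fold gave a tissue difference of 1.18 ± 0.22 (SE; limma adjusted p = 0.00497), and no other gene of the 21 in the glucose list passed in any of the 3 tests.

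Several genes passed only as a difference between tissues, with the tissues leaning in opposite directions. St3gal5, the synthase of the ganglioside GM3, was at 9.03, 9.02 and 8.99 in WT and 8.65, 8.34 and 8.07 in KO livers, and at 5.73, 5.38 and 5.05 in WT and 6.0, 6.41 and 6.08 in KO hearts. All KO livers lay below the WT livers and all KO hearts above the WT hearts, neither tissue passed (limma adjusted p = 0.205 and 0.0804), and the difference of -1.44 ± 0.27 (SE) did (limma adjusted p = 0.00746). Mrc1, the macrophage mannose receptor, differed likewise (-0.67 in liver, 0.62 in heart). Its tissue call was lost without liver WT pool 9, heart WT pool 7 or heart pools 4 and 10 together. The 12 female arrays alone removed it as well (adjusted p up to 0.0784 over all alternatives). Of the 10 Kupffer and macrophage markers measured, 9 had a positive and 1 a negative liver difference, with a median of 0.30. In heart 6 were positive and 4 negative, with a median of 0.03. None of these markers passed in either tissue or in the tissue test. The part of macrophages in the Mrc1 values was not tested. Angptl4, an inhibitor of lipoprotein lipase and a known PPARα target, was -1.56 in liver and 0.31 in heart, neither of which passed. Its difference of -1.87 (limma adjusted p = 0.0260) was past the threshold under 10 of 23 alternatives and was lost without any of liver WT pools 7 and 8, liver KO pools 10 and 12, heart WT pools 8 and 9 or heart KO pool 12 (adjusted p up to 0.998 over all alternatives), and it rests on an _s_at probe set, without which the value was 0.00984.

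The other pathway lists gave few calls. Of 19 peroxisomal genes 8 fell in liver and 6 in heart (over all genes 0.451% and 0.412%), with medians of -0.20 and -0.15. In the tissue test 5 of them passed (over all genes 0.698%), 4 further down in liver (Decr2, Acaa1b, Abcd2 and Hsd17b4) and Cat in heart. Acaa1b was near background in heart and Decr2 near the array median there, where a fall could hardly be measured. Of 12 acyl-CoA thioesterases, which release free fatty acids, Acot2 fell in heart by 1.08 and no member passed in liver. In the list of uptake and activation, the transporter gene Slc27a1 fell in heart by 0.50 and the acyl-CoA synthetase gene Acsl6 was higher there by 0.84. The call for Slc27a1 was lost without heart WT pools 7, 8 or 9 or KO pools 10 or 11 (adjusted p up to 0.168), and that for Acsl6 without heart WT pools 7 or 8 or KO pools 10 or 12 (adjusted p up to 0.272). Averaged over probe sets Acot2 was -0.68 and passed, and Acsl6 was 0.40 and did not pass. None of 31 respiratory chain genes or 18 circadian clock genes passed in any of the 3 tests, and the medians of the respiratory chain were -0.05 in liver and 0.03 in heart. Of 18 uncoupling and citrate cycle genes only Ucp3 passed, which fell in heart by 0.64. Its call was lost without WT pool 7, 8 or 9 or KO pool 10 or 11 (adjusted p up to 0.259).

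**Figure D4:**
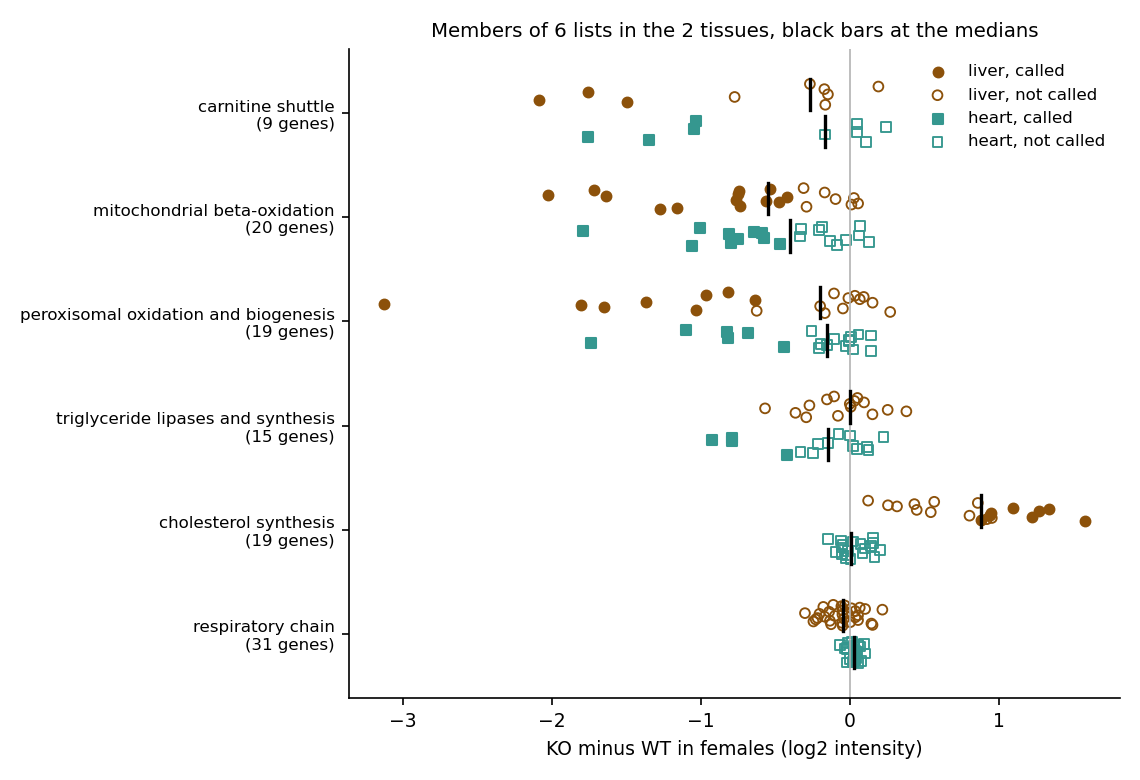
KO minus WT (x axis, log2) for the measured members of 6 gene lists in female liver and female heart, 1 point per gene, with the median of each list as a bar and called genes filled. Mitochondrial β-oxidation lies below 0 in both tissues, cholesterol synthesis above 0 in liver and around 0 in heart.

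The males gave the same comparison in other animals, but both sexes were fitted together. The sexes share the estimate of the spread of each gene, so the male calls are not independent of the female ones. The male tissue-by-genotype test called 94 genes (0.517%). Of the 127 genes called in females, 110 had the same sign in males and 17 the opposite, 48 passed in males with the same sign (37.8%) and none with the opposite. Of the 92 above the median in both tissues, 85 had the same sign and 37 passed (40.2%). The share with the same sign over all genes was not counted. Decr1 had a male tissue difference of 1.18, Acadl of -1.13, Eci2 of -1.09, Decr2 of -3.01, Plbd1 of 1.37, Bdh1 of -0.98, Rtn4 of -2.30 and Meg3 of 1.79. The female values of these genes were 1.04, -1.08, -1.38, -3.12, 1.77, -1.32, -1.65 and 2.26, in the same order, and no difference between the sexes passed for any of them.

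The difference between the female and the male tissue-by-genotype value was itself tested, and 10 genes passed (0.055%), 6 with a positive (0.033%) and 4 with a negative value (0.022%). Retsat fell 8.38-fold in female liver, but in males it fell by 1.12 in liver and by 1.09 in heart, a tissue difference of -0.03, and the sexes differed by -1.97 (limma adjusted p = 0.00181). Vnn1 had tissue differences of -4.75 in females and -1.30 in males, and Rad51b of -2.51 and -0.57. Hmgcs1, Idi1 and Fdft1 of cholesterol synthesis had male values of -0.42, -0.41 and -0.34 against 1.57, 1.27 and 1.04 in females (sex differences 1.99, 1.68 and 1.37). Cyp7b1 and Sult5a1 also passed, with 1.93 and 1.53. Leaving out heart pools 4 and 10 together left 5 of the 10 genes, 1 with a positive and 4 with a negative value. The positive calls, which include Hmgcs1, Idi1 and Fdft1, thus went from 6 to 1. With heart KO pool 10 alone left out, 11 genes were called, 7 with a positive value. With male heart KO pool 4 alone left out, 9 were called, 6 with a positive value. Leaving out liver WT pool 9 or liver KO pool 12 gave 16 and 21 genes.

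**Figure D5:**
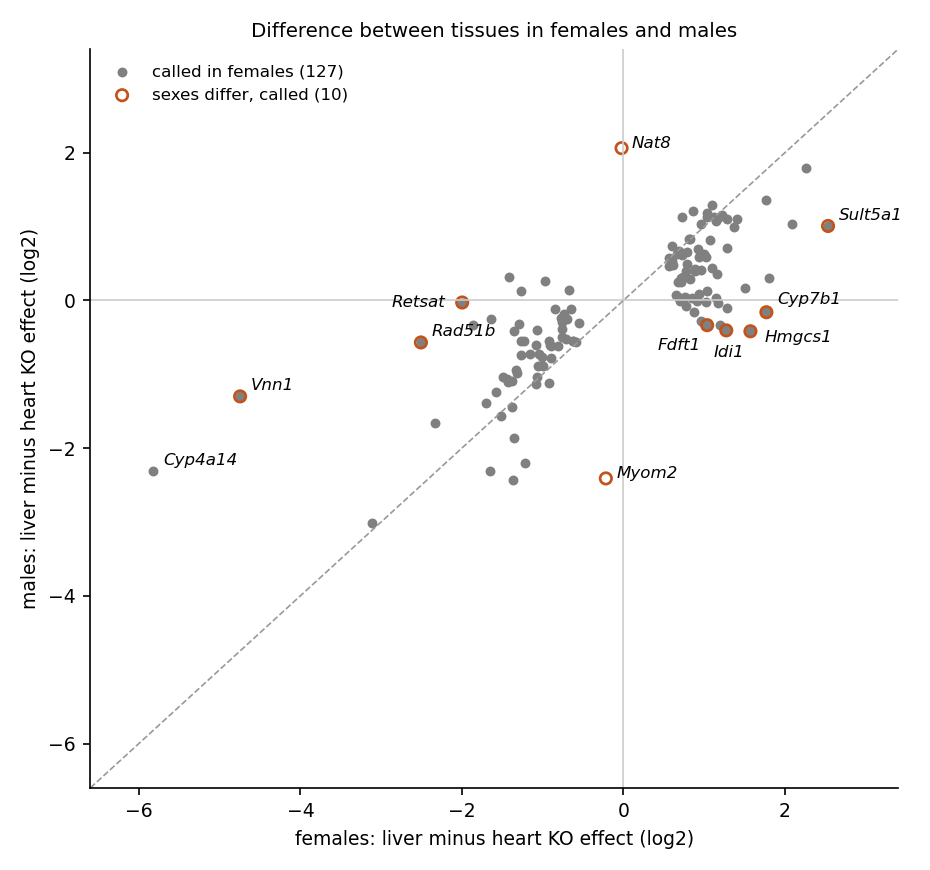
Tissue-by-genotype value (liver effect minus heart effect, log2) in females (x axis) against males (y axis) for the 127 genes called in females, with the 10 genes called as different between the sexes circled and a dashed line of equality. Most points share their sign, while Retsat and the cholesterol genes Hmgcs1, Idi1 and Fdft1 lie near or beyond 0 in males.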

How the data were processed

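RNA of female and male livers and hearts was measured on 24 Affymetrix arrays, 3 pools in each of 8 groups. The deposited values are log2 intensities that the authors made with robust multi-array averaging (RMA), per the submitters' processing notes; its version was not given in the sources used here. Of 45101 probe sets, 64 were controls and 34945 named a single gene in the platform annotation, and each of 18193 genes was represented by whichever of its single-gene probe sets had the highest mean. Probe sets with several genes (932) or none (9160) named no gene.

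Tests were run with limma 3.58.1 under R 4.3.3 (eBayes after lmFit, two-sided, Benjamini-Hochberg over all genes, threshold 0.05). KO against WT was fitted on the 12 arrays of a tissue, and tissue by genotype on all 24. Precision is limited by the number of arrays. The steps were tested on simulated data. Members, gene lists and alternatives were chosen with earlier results of these data known. Named genes were the 12 most positive and 12 most negative tissue-by-genotype calls above the median in both tissues, 4 of each near background in 1 tissue, the 8 lowest called in both tissues, the three-way calls, up to 4 members of each list and a fixed set. Other genes called in either tissue or in the tissue test were named after their values were seen. Alternatives covered the arrays fitted, variance model, array weights, scaling, filters, probe sets, a block for pool number and leaving out single pools; a level at least 1 log2 unit above the median was added after seeing the data. Promoter sequences are RefSeq's (GRCm38.p6). Pools with the same number in liver and heart did not deviate together.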

Additional observations from a re-analysis of the deposited data

Results flagged for a closer look

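The KO effect differed between liver and heart, by the test of the difference itself, for 127 genes in females. The tissue-by-genotype value also differed between the sexes, by a test of that difference, for 10 genes. Female minus male it was 1.99 for Hmgcs1, 1.68 for Idi1, 1.37 for Fdft1, 1.93 for Cyp7b1, 1.53 for Sult5a1 and 2.19 for Myom2, a muscle structural gene. It was -3.45 for Vnn1, -1.97 for Retsat, -1.94 for Rad51b and -2.08 for Nat8, an acetyltransferase gene. Neither Myom2 nor Nat8 passed in the female tissue-by-genotype test. Without heart pools 4 and 10 together the test between the sexes kept 5 of the 10 genes, 1 of them with a positive value. Without pool 10 alone it called 11 genes, 7 of them positive, and without pool 4 alone 9, 6 of them positive. Among the 10092 probe sets that name several genes or none and entered no gene result, 18 passed the female tissue-by-genotype test (0.178%), with values between -6.97 and 2.04.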

How the results depend on the processing

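The 127 tissue-by-genotype calls became 63 when only the 12 female arrays were fitted (59 shared) and 253 with array weights, and the 92 above the median in both tissues became 45 and 179. Leaving out 1 pool at a time gave 96 to 172 and 70 to 122. Liver calls (148) became 55 with 6 arrays and 326 with array weights, and 88 to 203 with a pool left out. The higher share of the 203 without KO pool 12 was 62.6%, against 44.6% in all pools. Liver calls fell to 96, 90 and 88 without WT pool 7, WT pool 8 and KO pool 11. Heart calls (97) were 61 to 82 with a pool left out (61, 62 and 63 without WT pool 7, WT pool 8 and KO pool 10) and 59 without heart pools 4 and 10, which left 100 tissue-by-genotype calls. Calls in both tissues (26) became 17 with 6 arrays and were 22 to 27 with a pool left out. The 10 three-way calls became 17 with array weights, 5 without dim genes, 6 with the mean of probe sets, 5 without heart pools 4 and 10 and 7 to 21 with a pool left out. Pool numbers are shared by liver and heart, but only 2 of 12 same-numbered pairs correlated above 0.1 and 4 of 12 liver pools correlated best with their own number. With the replicate block fixed, 111 genes were called for tissue by genotype and 5 in the three-way test, and with it random 127. The tissue value turned sign for Igfbp5 (-0.0377) and Angptl4 (0.00984) without _s_at and _x_at probe sets and for Tpm2 (0.0444) with the mean of probe sets. Of 104 called genes followed one by one, 43 were called under every alternative run. The causes were not tested. Genes near background in a tissue give only a limit on their change there.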
